A study of Mus musculus with 16 samples.

Results

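Respiratory complex I, the NADH:ubiquinone oxidoreductase of the inner mitochondrial membrane, was followed through the transcripts of its nuclear-encoded subunits. The genes were the 37 of 17230 rows of the deposited count table whose symbol is Ndufa, Ndufb, Ndufc, Ndufs or Ndufv followed by a number, together with Ndufab1. The Ndufaf assembly factors, pseudogenes and the paralog Ndufa4l2 were outside this rule, which used gene names and no measured value. All 37 genes passed the filter on low counts, with between 82 and 23931 reads per gene and library. The row used for Ndufb4 also carries the names of the near copies Ndufb4b and Ndufb4c, so reads may have been shared among them and its level is uncertain.

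Complex I takes electrons from NADH in the matrix, passes them along a chain of iron-sulfur clusters to ubiquinone, and couples this to proton pumping across the membrane. Its L-shaped structure has a hydrophilic arm in the matrix, built of the NADH-oxidising and the ubiquinone-reducing modules, and a membrane arm whose proximal and distal parts hold the proton-pumping subunits. The central catalytic subunits are conserved from bacteria; those of the membrane arm are encoded in mitochondrial DNA and those of the matrix arm in the nucleus, and a shell of accessory subunits, all nuclear-encoded, is needed for assembly and stability. Oxidative muscle fibres are rich in the complex, since it is a main entry point for the electrons that drive their aerobic ATP production.

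The RNA came from mouse plantaris, a plantar flexor muscle of the lower hindlimb, of animals aged 9 to 12 weeks. The groups were Wild Type with sham surgery (WT Sham, n = 4), TRIM28 mKO, labelled Trim28 Knockout, with sham surgery (KO Sham, n = 3), Wild Type after myotenectomy (WT MTE, n = 4) and TRIM28 mKO after myotenectomy (KO MTE, n = 4). Myotenectomy removes the tendon of a synergist muscle, so that the plantaris carries more load, and per the labels it served as mechanical overload. TRIM28 is a corepressor that silences chromatin. The sources used here do not name the strain, the sex, the time after surgery or the promoter that drives the deletion. The labels list 4 KO Sham samples while the tables held 3 KO Sham columns, which are therefore called columns 1 to 3 and were not matched to labels by number. Since the labels do not say that each library is a separate mouse, the p-values describe how far these libraries spread, which may be partly technical.

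Library totals ran from 21.1 M to 69.2 M reads (M, mega). Trim28 itself stood at 27.8 to 49 CPM (counts per M counts after TMM scaling) in WT Sham, 5.39 to 12.7 in KO Sham, 35.3 to 60.9 in WT MTE and 18 to 30.3 in KO MTE, so the lowest WT MTE library exceeded every KO MTE library and the same held at rest. The 20 muscle fibre markers together made up 135300 to 402200 CPM in every library, as the tissue label says. A pair of libraries stood apart from the others of their groups. WT Sham 1 had a mitochondrially encoded share of 6.95% of reads, the rest of its group 13.3% to 14.4%, and macrophage markers that summed to 3711 CPM where the lowest WT Sham library had 276. A list of 14 interferon-stimulated genes summed to 4816 CPM in WT Sham 1, against 179 to 251 CPM in the rest of its group. KO Sham column 3 had the highest mitochondrially encoded share (20.5%) and the smallest total. In bulk RNA, fewer cells of a type and less RNA per cell cannot be told apart.

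The genes lie on many chromosomes, though Ndufs8 (3908863 to 3912774) and Ndufv1 (4007384 to 4012806) are close together on chromosome 19. Promoter windows, 250 bases before to 50 after the start site in RefSeq (GRCm38.p6), were matched for 33 of the 37 genes, with 35 windows in all. Ndufa2, Ndufb9 and Ndufs1 were among the genes not matched. Motif letters of factors known to act on nuclear genes of the respiratory chain were counted on both strands. The NRF1 motif, searched first as its core CGCANGCG with a G before and a C after it, was found in 22.9% of the 35 windows and in 4.6% of all 32841 windows. The core alone, a form chosen after those shares were seen and the one marked in the sequences below, was found in 34.3% and 8.21%. The YY1 motif ATGGCGGC was found in 20% and 2.24%. The shares were 11.4% and 8.86% for the ETS (GABP) motif CCGGAAG, 8.57% and 4.72% for the ESRRA motif AAGGTCA, and 45.7% and 35.7% for the SP1 motif GGGCGG. These matches describe letters and are not evidence of binding. The 250 bases upstream of the start are shown for 3 genes that carry the results below: Ndufb4, among the genes with the largest fall after overload and with 3 NRF1 matches, Ndufs3, whose fall had the smallest error, and Ndufa11, whose level did not follow the groups. Each is on GRCm38.p6, 5′ to 3′ on the gene's strand, with NRF1 matches (Ndufb4, Ndufa11) or the ETS match (Ndufs3) in capitals; Ndufb4 is at chr16:37654369-37654618 (minus strand), Ndufs3 at chr2:90904722-90904971 (minus strand) and Ndufa11 at chr17:56717512-56717761 (plus strand).
Ndufb4: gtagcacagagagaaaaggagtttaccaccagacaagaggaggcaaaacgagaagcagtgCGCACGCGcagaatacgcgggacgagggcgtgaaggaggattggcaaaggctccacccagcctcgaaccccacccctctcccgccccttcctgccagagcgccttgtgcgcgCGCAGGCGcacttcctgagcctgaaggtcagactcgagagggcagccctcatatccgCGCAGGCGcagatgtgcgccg
Ndufs3: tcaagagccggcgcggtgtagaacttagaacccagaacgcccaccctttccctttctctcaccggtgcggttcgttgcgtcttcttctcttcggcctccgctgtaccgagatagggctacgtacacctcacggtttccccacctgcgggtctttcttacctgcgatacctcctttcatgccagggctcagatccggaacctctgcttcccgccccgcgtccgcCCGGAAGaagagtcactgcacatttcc
Ndufa11: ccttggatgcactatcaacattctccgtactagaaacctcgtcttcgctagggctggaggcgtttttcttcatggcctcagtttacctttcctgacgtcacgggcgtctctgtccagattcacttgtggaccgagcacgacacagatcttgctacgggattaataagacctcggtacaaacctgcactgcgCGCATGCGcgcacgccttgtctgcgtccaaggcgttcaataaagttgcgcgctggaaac

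Before any comparison, the genes differed widely in transcript level, although a protein complex holds its subunits in fixed ratios. Per kilobase of transcript (CPM per kb, with the length of the principal GENCODE M21 transcript), the WT Sham means ran from 17.9 for Ndufab1 to 457 for Ndufa4, a 25.5-fold range around a median of 87.4. Both end genes have roles outside complex I, given below, and the Ndufab1 value rests on a transcript of 3479 bases. Without these genes the means ran from 28.2 for Ndufc2 to 343 for Ndufb9. Below Ndufa4, the highest were Ndufb9 (343 ± 47.1, SD, n = 4) and Ndufb8 (269 ± 24.7). At the low end, Ndufc2 (28.2 ± 2.74), Ndufv3 (29 ± 3.09) and Ndufb4 (34.1 ± 5.32) also overlapped. Of the core subunits, Ndufs8 was at 39.2 CPM per kb. Of the 37 genes, 14 overlap an exon of another gene on the opposite strand and 3 on the same strand, and the sources used here do not say if reads were counted by strand, so such a pair may share reads.

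After overload, most complex I transcripts were lower in Wild Type muscle. Summed over the 37 genes, the level was 3496 to 4293 CPM in WT Sham and 2501 to 2992 CPM in WT MTE, without overlap. In edgeR's quasi-likelihood fit, with Benjamini-Hochberg adjustment over 17212 genes and a call at an adjusted p under 0.05, 24 of 37 genes fell and 0 rose, while 11.2% of all genes tested fell and 14.1% rose. The median log2 fold change was -0.52, against 0.036 over all genes, and the range was -0.89 to 0.16. In 25 genes every WT MTE library lay below every WT Sham library, which 11% of all genes did. Every adjusted p below is from this fit unless another tool is named.

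**Figure D1:**
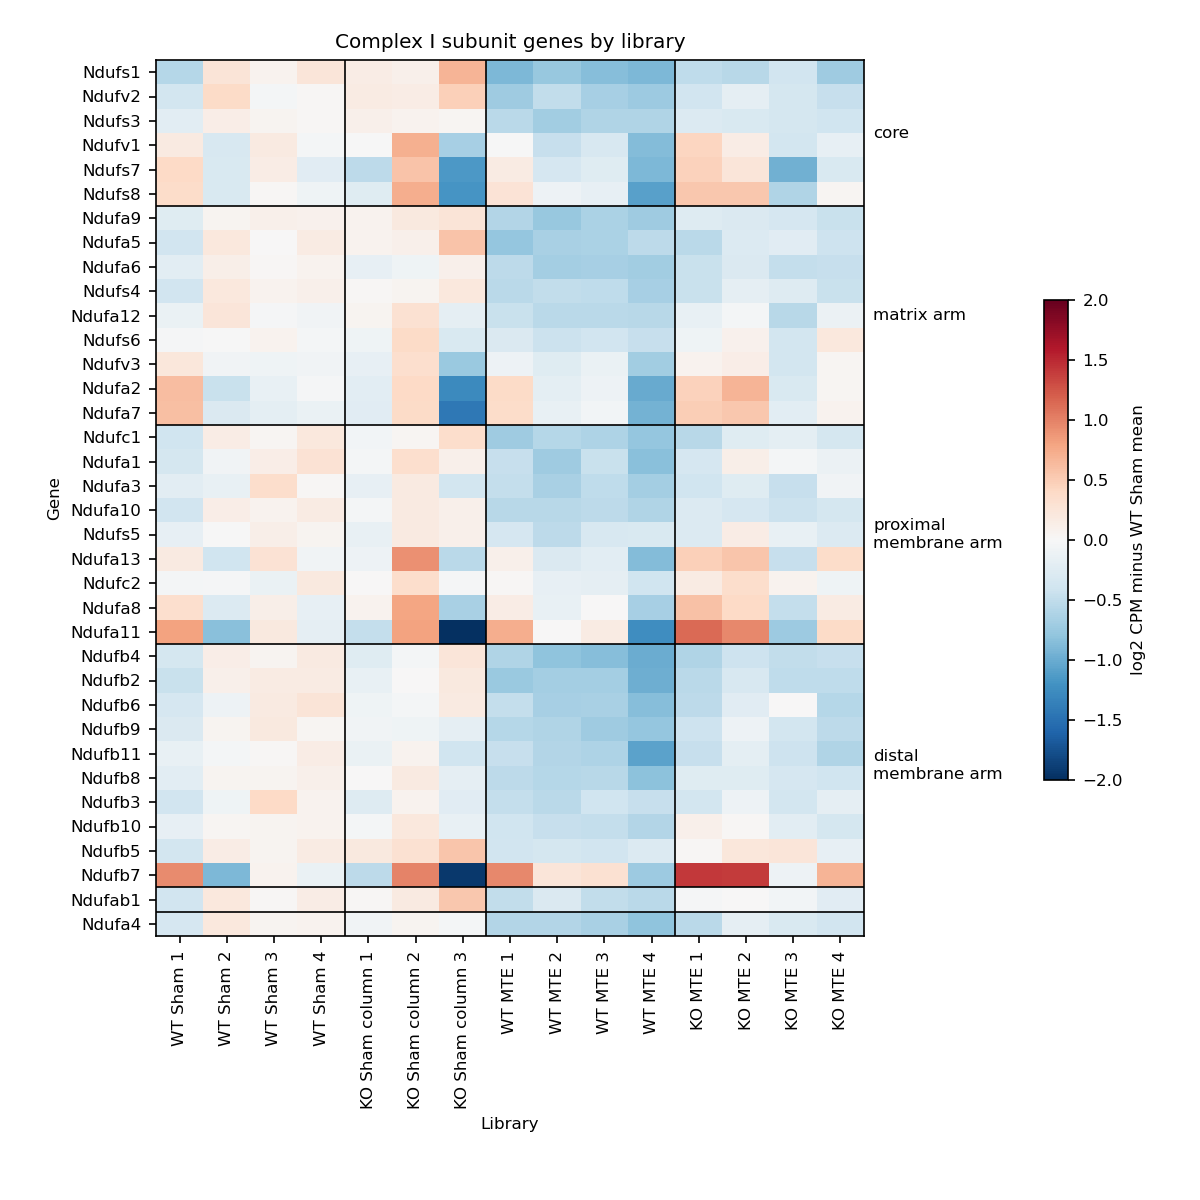
Heat map of log2 CPM minus the WT Sham mean (colour) for 36 complex I genes (rows, grouped by place in the complex) in the 15 libraries (columns, grouped by genotype and surgery). Most rows turn blue in the WT MTE libraries, more so than in the KO MTE libraries, while a set of rows led by Ndufa11 and Ndufb7 follows single libraries.

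Of the core subunits, Ndufs1, Ndufv2 and Ndufs3 fell in WT muscle, and Ndufv1, Ndufs7 and Ndufs8 did not pass the test. Ndufs1, which carries several iron-sulfur clusters of the NADH-oxidising module, measured 274, 483, 427 and 479 CPM in WT Sham 1 to 4 and 218, 239, 225 and 216 CPM in WT MTE 1 to 4. Its groups did not overlap, WT Sham 1 being the lowest of the sham libraries, and it fell by 45.9%, the largest change of the 37, with a log2 fold change of -0.89 (SE 0.18, adjusted p = 0.00289). Ndufv2, a ferredoxin-like subunit of the same module, had 171, 288, 213 and 224 CPM in WT Sham and 135, 156, 139 and 134 CPM in WT MTE. The groups were again apart, with a log2 fold change of -0.67 (SE 0.15, adjusted p = 0.00473).

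Other core subunits sit nearer the ubiquinone site. Ndufs3, part of the ubiquinone-reducing module, had 130.3, 165, 157 and 152 CPM in WT Sham and 103, 92.7, 99.2 and 99.8 CPM in WT MTE. No library crossed between the groups, and its log2 fold change of -0.61 (SE 0.097, adjusted p = 0.000534) had the smallest SE of the 37.

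The core genes that did not pass varied more from library to library. Ndufv1, which binds NADH and the flavin cofactor, had 156, 111, 156 and 134 CPM in WT Sham and 137, 100.4, 109.9 and 75.4 CPM in WT MTE. Its ranges overlapped, and the log2 fold change of -0.40 had an SE of 0.27 (adjusted p = 0.301). Ndufs7, which holds the terminal iron-sulfur cluster, had 44.2, 27.1, 37.1 and 28.6 CPM in WT Sham and 37.5, 26.5, 28.5 and 18.1 CPM in WT MTE, with a log2 fold change of -0.31 (SE 0.36, adjusted p = 0.571). Ndufs8, another iron-sulfur subunit, had 48.9, 30.8, 38.6 and 35.9 CPM in WT Sham and 45.8, 35.6, 33.9 and 17.9 CPM in WT MTE, with a log2 fold change of -0.21 (SE 0.36, adjusted p = 0.715). In each of these 3 genes WT MTE 4 was the lowest library and lay below all WT Sham libraries, whereas WT MTE 1 lay within the WT Sham range. With an offset for the GC content of transcripts in each library, an alternative chosen after the data were seen, all 3 were called lower by edgeR, Ndufv1 at -0.72 (adjusted p = 0.000764), Ndufs7 at -0.66 (adjusted p = 0.00313) and Ndufs8 at -0.56 (adjusted p = 0.019).

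Among the accessory subunits, 5 of 9 genes of the matrix arm fell, 5 of 9 of the proximal membrane arm, and 8 of 10 of the distal membrane arm. Of all genes tested 11.2% fell, and the arms were not tested against each other. Of the 4 largest changes in WT muscle, 3 were in the membrane arm. Its proximal and distal parts hold 9 and 10 of the 37 genes. Ndufb4, a distal subunit whose upstream sequence is shown above, had 25.6, 35.8, 33.9 and 37.1 CPM in WT Sham and 21.6, 18.8, 18.2 and 16.4 CPM in WT MTE. It fell by 43.4%, with a log2 fold change of -0.82 (SE 0.14, adjusted p = 0.000946). A separate row for the pseudogene Ndufb4c had at least 27.1 CPM in every library, so the level of Ndufb4 is uncertain. Ndufb2, also distal, had 31.4, 46.1, 48.2 and 48.1 CPM in WT Sham and 25.5, 26.7, 26.8 and 21.8 CPM in WT MTE. WT Sham 1 was far below the other sham libraries and still above all overloaded ones, and the log2 fold change was -0.78 (SE 0.14, adjusted p = 0.00124). Ndufc1, of the proximal part, had 41.1, 60.5, 55.7 and 63 CPM in WT Sham and 33.2, 36.5, 35.3 and 31.6 CPM in WT MTE, with a log2 fold change of -0.69 (SE 0.14, adjusted p = 0.00295). These 3 genes behaved alike, with no overlap between groups and WT Sham 1 the lowest sham library.

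In the matrix arm the genes that fell were Ndufa9, Ndufa5, Ndufa6, Ndufs4 and Ndufa12, here named after their values were seen. Ndufa9, which sits where the arms meet, had a log2 fold change of -0.68 (SE 0.11, adjusted p = 0.000519), and Ndufa6, a LYR-motif protein that binds acyl carrier protein, one of -0.64 (SE 0.10, adjusted p = 0.000544). Ndufs4, whose loss in mice causes a Leigh-like encephalopathy, had a log2 fold change of -0.57 (SE 0.13, adjusted p = 0.00511). Ndufa4 was first described as a complex I subunit and was later assigned to complex IV. It had 218, 319.5, 286 and 291 CPM in WT Sham and 183, 184, 176 and 158 CPM in WT MTE, without overlap, and a log2 fold change of -0.67 (SE 0.13, adjusted p = 0.00211). Without Ndufa4 the count was 23 of 36. Ndufab1, the mitochondrial acyl carrier protein that also serves fatty acid synthesis, had 47.3, 71.5, 62.2 and 67.9 CPM in WT Sham and 43.5, 50.4, 43.6 and 42.5 CPM in WT MTE. WT MTE 2 lay above WT Sham 1, so the groups overlapped, and the log2 fold change was -0.47 (SE 0.14, adjusted p = 0.0256). This call was lost in 6 of the 8 fits that left out 1 library, those without WT Sham 2, 3 or 4 or WT MTE 1, 3 or 4, with an adjusted p of up to 0.0863. Ndufa4l2, the hypoxia-induced paralog of Ndufa4, had 2.87, 2.67, 2.31 and 3.85 CPM in WT Sham and 4.56, 4.79, 6.24 and 2.55 CPM in WT MTE and did not pass the test, with a log2 fold change of 0.63 (SE 0.45, adjusted p = 0.331).

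The smallest changes in WT muscle were those of Ndufa11, Ndufa8, Ndufb7 and Ndufa7. Ndufa11, a membrane subunit at the contact with complex III in supercomplexes, had 40.1, 12.9, 26.4 and 20.3 CPM in WT Sham and 37.8, 23.1, 25.8 and 9.71 CPM in WT MTE. Ndufb7, a distal subunit of the intermembrane face, had 37.1, 10.3, 20.2 and 17.5 CPM in WT Sham and 37.4, 22.8, 23.6 and 11.5 CPM in WT MTE. In both genes WT Sham 1 and WT MTE 1 were the highest of their groups and the ranges overlapped, with log2 fold changes of -0.046 (SE 0.55) and 0.16 (SE 0.54). Ndufa8, of the intermembrane face too, had 60.7, 39.9, 52 and 42.8 CPM in WT Sham and 53.4, 43.4, 48.4 and 30.4 CPM in WT MTE. Ndufa7, of the matrix arm, had 51.5, 27.6, 29.6 and 30.9 CPM in WT Sham and 43.5, 30.5, 32.6 and 17.6 CPM in WT MTE. Neither gene passed the test, with log2 fold changes of -0.15 (SE 0.28, adjusted p = 0.736) and -0.17 (SE 0.34, adjusted p = 0.761). The signs for Ndufa11, Ndufb7 and Ndufa7 turned under other settings: without WT Sham 1, Ndufa11 was at 0.24 and Ndufa7 at 0.035, and without WT MTE 1, Ndufb7 was at -0.14.

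Markers of other cell types moved in the same comparison. Of 12 fibroblast and matrix markers 11 rose and 0 fell, and their summed level was 2787 to 4605 CPM in WT Sham and 13310 to 33400 CPM in WT MTE. Of 20 muscle fibre markers 8 fell and 0 rose (median log2 fold change -0.55), with sums of 275600 to 402200 CPM in WT Sham and 156400 to 270800 CPM in WT MTE. Of 12 macrophage markers 1 rose, with sums of 276 to 3711 CPM and 1299 to 1773 CPM. Without WT Sham 1 the WT Sham sums were 276 to 384.5 CPM, all below WT MTE. Of 8 endothelial markers 1 rose, with sums of 321 to 388 CPM in WT Sham and 348 to 463 CPM in WT MTE. No marker of these lists was at 0 in any library, and their part in the fall of the complex I genes was not tested. Without WT Sham 1, 26 complex I genes were called lower and 0 higher. In that fit 17.6% of all genes were called lower and 21.4% higher, also more than in the fit to all libraries.

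In KO muscle the same direction was seen in fewer genes. The summed level of the 37 genes was 3980 to 4643 CPM in KO Sham and 3191 to 3734 CPM in KO MTE, without overlap. Of the 37, 11 fell and 0 rose, against 12.7% of all genes tested that fell and 13.2% that rose, and the median log2 fold change was -0.23, against 0.038 over all genes. In 14 genes the KO MTE libraries all lay below the KO Sham columns, which 16.2% of all genes did. All 11 had also fallen in WT muscle, 13 genes were called in WT alone and 0 in KO alone. This count depended on single libraries: it was 3 (Ndufs1, Ndufa9 and Ndufs3) without KO Sham column 3, 7 without KO MTE 1 and 5 without KO MTE 4. The share of all genes called lower fell too, to 5.53%, 9.32% and 8.04% in the same order. The median of the complex I genes was -0.14 without KO Sham column 2.

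The markers of other cell types moved here as well. Of the 12 fibroblast and matrix markers 9 rose and 0 fell, with sums of 1604 to 4564 CPM in KO Sham and 15730 to 21160 CPM in KO MTE. Of the 12 macrophage markers 6 rose and 0 fell, where 13.2% of all genes tested rose and 12.7% fell. Their sums were 131.4 to 317.5 CPM in KO Sham and 928.1 to 1086 CPM in KO MTE. In all 12 the KO MTE libraries lay above the KO Sham columns, as in 3431 of the 17212 genes tested. Of the 20 muscle fibre markers 5 fell and 1 rose, with sums of 234000 to 297300 CPM in KO Sham and 135300 to 228700 CPM in KO MTE. Of the 8 endothelial markers 0 passed the test. The part of these lists in the KO values of the complex I genes was not tested.

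**Figure D2:**
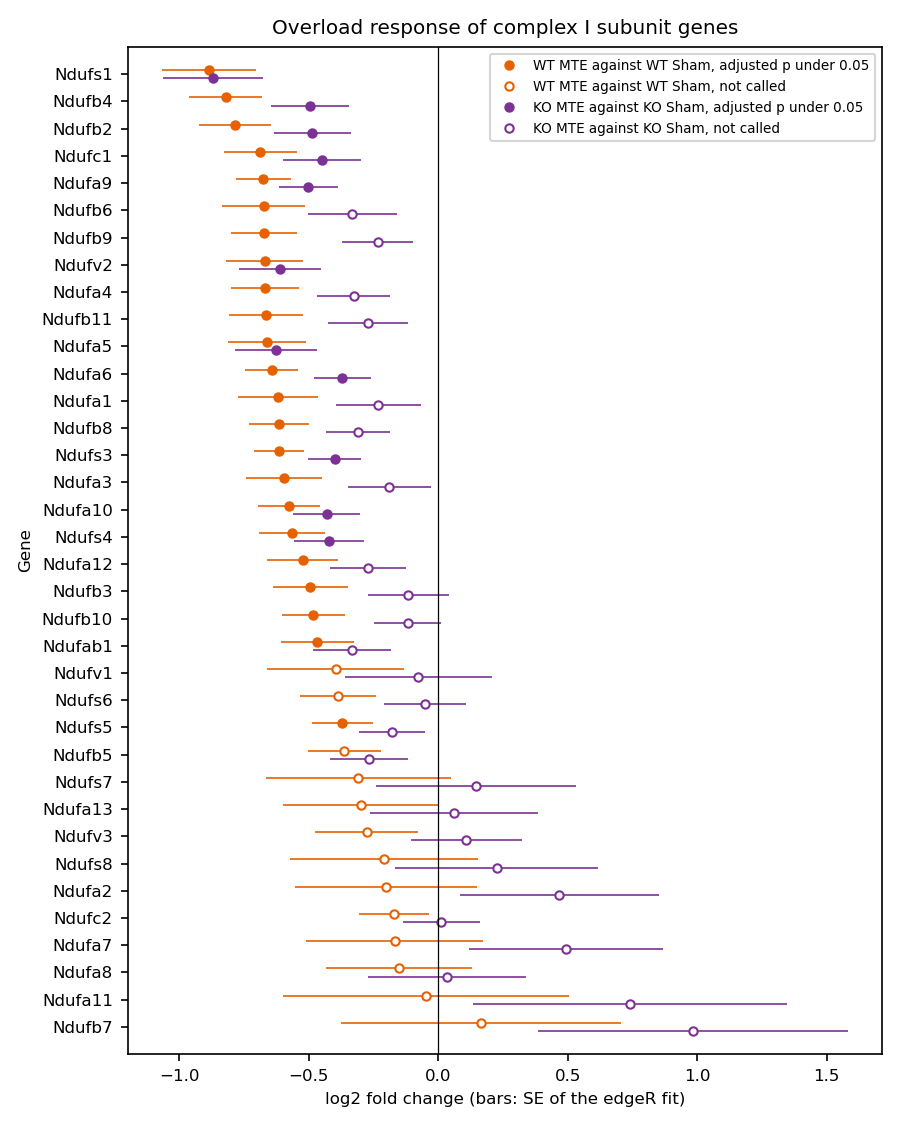
log2 fold change of 36 complex I genes (vertical axis) after overload in WT (orange) and KO (purple), with bars for the SE of the edgeR fit and filled circles for an adjusted p under 0.05. The 23 filled WT circles and 11 filled KO circles all lie left of 0, and the widest bars belong to Ndufb7 and Ndufa11.

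The 11 genes were the core subunits Ndufs1, Ndufv2 and Ndufs3, 4 genes of the matrix arm, and 2 each of the proximal and distal membrane arm. Ndufs1 had 449, 435 and 651 CPM in KO Sham columns 1 to 3 and 285, 276, 311 and 248 CPM in KO MTE 1 to 4. KO Sham column 3 was far above the other columns, the groups did not overlap, and the log2 fold change of -0.87 (SE 0.19, adjusted p = 0.00632) was close in size to the WT value. Ndufv2 had 247, 245 and 305 CPM in KO Sham and 168, 194, 173 and 161 CPM in KO MTE, and Ndufs3 had 161, 158 and 156 CPM in KO Sham and 125, 122, 118 and 115 CPM in KO MTE. Both pairs of groups were apart, with log2 fold changes of -0.61 (SE 0.16, adjusted p = 0.0135) and -0.40 (SE 0.10, adjusted p = 0.0134).

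The core genes Ndufv1, Ndufs7 and Ndufs8 did not pass the test in KO either. Ndufv1 had 137, 226 and 86.6 CPM in KO Sham and 185, 154, 107 and 123 CPM in KO MTE, Ndufs7 had 23.5, 49.6 and 15.1 CPM and 46.2, 39.7, 17.2 and 27.2 CPM, and Ndufs8 had 32.1, 62.6 and 16.8 CPM and 55.2, 55, 25.1 and 39 CPM. In all 3 genes KO Sham column 2 was the highest and column 3 the lowest of the KO libraries at rest, a spread that spanned the KO MTE values. Their log2 fold changes were -0.076 (SE 0.28), 0.14 (SE 0.39) and 0.23 (SE 0.39). Without KO Sham column 3 the last 2 turned to -0.17 and -0.12, and without column 2 that of Ndufv1 turned to 0.35.

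Of the accessory subunits with the largest WT changes, all 3 fell in KO as well. Ndufb4 had 27.7, 32 and 39 CPM in KO Sham and 21.6, 24.6, 23.4 and 23.7 CPM in KO MTE, with a log2 fold change of -0.49 (SE 0.15, adjusted p = 0.0282). Ndufb2 had 38.8, 42.9 and 48.8 CPM and 29.5, 34.5, 30.1 and 30.1 CPM, with a log2 fold change of -0.49 (SE 0.15, adjusted p = 0.0293). Ndufc1 had 52.1, 56 and 69.2 CPM and 37.2, 46.1, 47.3 and 42.6 CPM, with a log2 fold change of -0.45 (SE 0.15, adjusted p = 0.0414). The groups did not overlap in these 3 genes, and each lost its call in 4 of the 7 fits that left out 1 library. For all 3 these included the fits without KO Sham column 3, KO MTE 1 and KO MTE 4, and the other was without KO MTE 2 for Ndufb4 and Ndufc1 and without KO MTE 3 for Ndufb2. Their log2 fold changes without column 3 were -0.36, -0.40 and -0.32 for Ndufb4, Ndufb2 and Ndufc1.

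Ndufa4 and Ndufab1 did not pass in KO although their groups did not overlap. Ndufa4 had 262, 287 and 269.8 CPM in KO Sham and 190.4, 244, 223 and 213 CPM in KO MTE, with a log2 fold change of -0.33 (SE 0.14, adjusted p = 0.0937). Ndufab1 had 62.8, 69.3 and 89.6 CPM in KO Sham and 60.8, 62, 59 and 52.6 CPM in KO MTE, with a log2 fold change of -0.33 (SE 0.15, adjusted p = 0.113). Ndufa4l2 had 3.08, 6.28 and 0.98 CPM and 5.51, 5.81, 1.93 and 4.26 CPM.

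The 4 genes with the smallest WT changes had wide KO Sham ranges. Ndufa11 had 16.5, 40.1 and 5.21 CPM in KO Sham and 50.2, 44.6, 13.8 and 30 CPM in KO MTE, and Ndufb7 had 13.3, 38.1 and 5.02 CPM and 50.9, 50.3, 17.9 and 30.6 CPM. Column 3 was lowest in both and lay below all KO MTE libraries, while column 2 lay among them, and the log2 fold changes were 0.74 (SE 0.61, adjusted p = 0.37) and 0.98 (SE 0.60, adjusted p = 0.229). Without column 2, Ndufb7 was called higher, at 2.01 on the log2 scale with an adjusted p of 0.03. Ndufa8 had 50.5, 82.8 and 30.6 CPM in KO Sham and 71.9, 63.2, 34.8 and 53.9 CPM in KO MTE, and Ndufa7 had 28.7, 44.2 and 12.5 CPM and 47.2, 48.8, 29.3 and 35.6 CPM. Neither passed, with log2 fold changes of 0.032 (SE 0.30, adjusted p = 0.946) and 0.49 (SE 0.37, adjusted p = 0.333), and the sign for Ndufa8 turned to -0.25 without column 3.

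**Figure D3:**
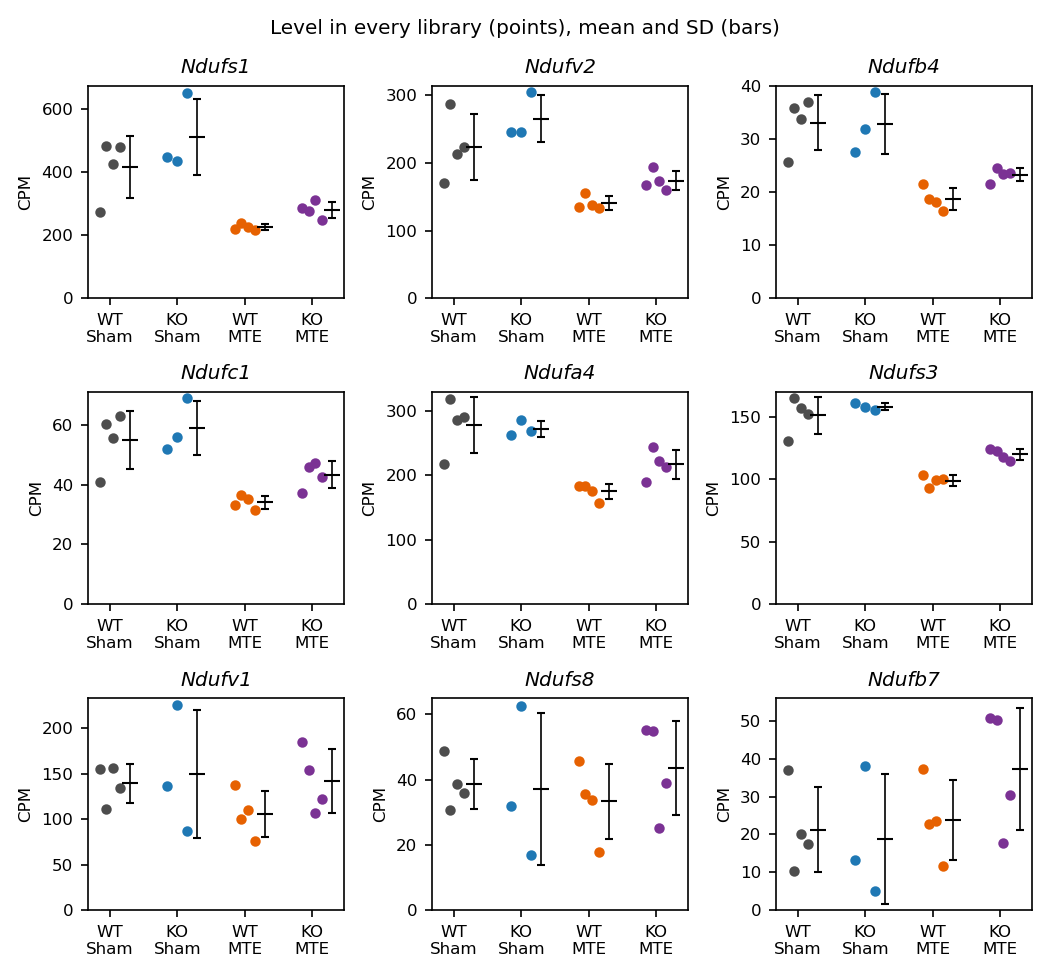
CPM of 9 complex I genes in every library (points) with group mean and SD (bars) for the 4 groups; each vertical axis starts at 0. Ndufs1, Ndufv2, Ndufb4 and Ndufc1 sit lower in both MTE groups than in the sham groups, while Ndufv1, Ndufs8 and Ndufb7 spread as widely within a group as between groups.

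Between the genotypes at rest, no complex I gene was called by edgeR, where 0.18% of all genes were called lower and 0.331% higher. The only gene with an unadjusted p under 0.05 was Ndufb5 of the distal membrane arm, which was higher, as were 5.08% of all genes, and DESeq2 and limma voom, with or without sample quality weights, called 0. Ndufb5 had 140.4, 201, 189.9 and 205 CPM in WT Sham and 209, 225 and 267 CPM in KO Sham, so all KO columns lay above all WT libraries, as in 4.54% of all genes, with a log2 fold change of 0.34 (SE 0.15, adjusted p = 0.427). The median over the 37 genes was 0.016, with 22 above 0 and 15 below, where 48.6% of all genes were above 0, and values ran from -0.29 to 0.34. Of the core genes, Ndufs1 stood at 0.30 (SE 0.19).

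After overload, the KO libraries held more complex I transcript than the WT libraries, but in no single gene past the threshold. The summed level of 3191 to 3734 CPM in KO MTE lay above the 2501 to 2992 CPM of WT MTE. The log2 fold change was above 0 in 36 of 37 genes, as it was in 42.2% of all genes, and the median was 0.32, against -0.06 over all genes. edgeR called 0 of the 37, where 1.21% of all genes were called higher and 0.256% lower, and the smallest adjusted p was 0.138. At an unadjusted p under 0.05, 17 were higher, against 6.86% of all genes. The count, in either direction, was 6 without WT MTE 4, 7 without KO MTE 2, 9 without WT MTE 3 and 11 without WT MTE 2. Shares of all genes at this threshold were not computed for those fits, so the change cannot be set against them. In 19 every KO MTE library lay above every WT MTE library, against 5.58% of all genes. These 37 genes share libraries and vary together, so the counts do not stand for 37 independent observations.

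The call at this comparison depended on the tool. DESeq2 called 4 genes higher (Ndufa1, Ndufa9, Ndufb10 and Ndufs3), limma voom 0, and limma voom with sample quality weights 6. A fit to the WT MTE and KO MTE libraries alone called 2, and the fit without WT Sham 1 and KO Sham column 3 called 6, although neither library belongs to this comparison. The share of all genes called higher was 2.9% with DESeq2, 1.32% with limma voom, 4.57% with quality weights, 2.33% in the fit to these libraries alone and 3.21% without the pair of libraries. Ndufa1, a small membrane subunit named here after its values were seen, had 31.1, 26.1, 31.5 and 23.9 CPM in WT MTE and 33.7, 46.1, 41.3 and 39.1 CPM in KO MTE. All KO MTE libraries were above all WT MTE libraries, with a log2 fold change of 0.51 (SE 0.15, adjusted p = 0.138). Ndufs3, with the values above, had a log2 fold change of 0.28 (SE 0.097, adjusted p = 0.214), Ndufs1 one of 0.32 (SE 0.18, adjusted p = 0.495) and Ndufa4 one of 0.31 (SE 0.13, adjusted p = 0.315). The fibroblast and matrix markers had 12 of 12 below 0 with 0 called, and overlapping sums of 13310 to 33400 CPM in WT MTE and 15730 to 21160 CPM in KO MTE. The macrophage markers also had 12 of 12 below 0 with 0 called (median -0.52), and sums of 1299 to 1773 CPM in WT MTE and 928.1 to 1086 CPM in KO MTE that did not overlap. Muscle fibre markers had a median of 0.12 with 0 called, and sums of 156400 to 270800 CPM in WT MTE and 135300 to 228700 CPM in KO MTE. The part of these lists in the complex I difference was not tested.

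**Figure D4:**
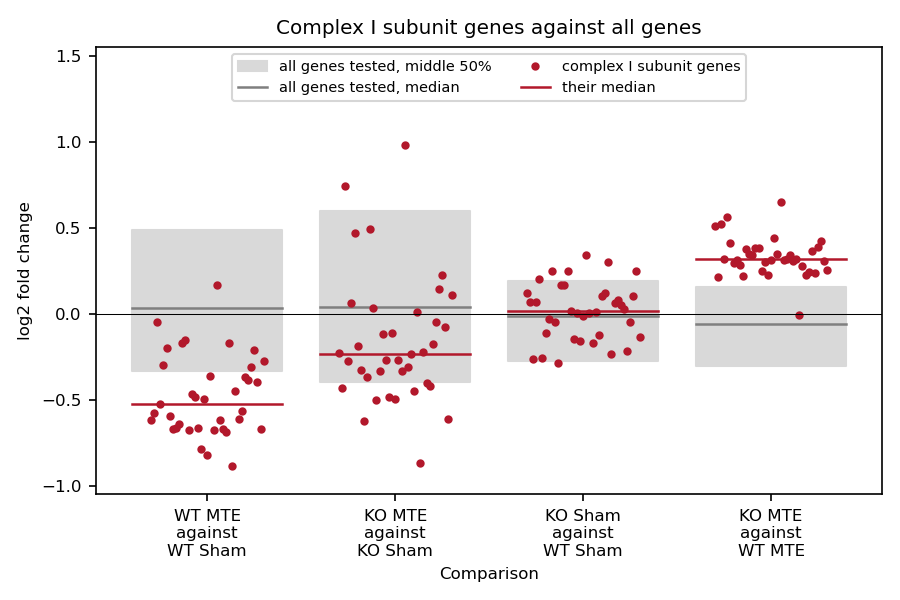
log2 fold changes of the 37 complex I genes (red points, with their median as a red line) in 4 comparisons, beside the middle 50% (grey band) and median (grey line) of all genes tested. The red median lies at -0.52 and -0.23 for overload in WT and KO, near 0 between genotypes at rest, and at 0.32 between genotypes after overload.

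Whether the overload response itself differed by genotype was tested as an interaction, the KO response minus the WT response. The estimate was above 0 in 37 of 37 genes, from 0.017 for Ndufs1 to 0.82 for Ndufb7, with a median of 0.32, where 48.4% of all genes were above 0. edgeR called 0 of 37 and 0% of all genes, and DESeq2 and limma voom called 0 of the 37 as well. Ndufb9 alone had an unadjusted p under 0.05, as did 1.86% of all genes in this direction, with an estimate of 0.44 (SE 0.19, adjusted p = 0.989). This count of 1, taken in either direction, was 14 without WT Sham 1, 12 without KO Sham column 2, 15 without WT Sham 1 and KO Sham column 3 and 18 with sample quality weights. It was 0 without any one of WT Sham 2, WT Sham 3, WT Sham 4, WT MTE 3, WT MTE 4 or KO MTE 2. Shares of all genes at this threshold were not computed for these fits, so the changes cannot be set against them. Since edgeR called no gene for the interaction, the 13 genes called in WT alone are not shown to respond differently in KO. Across the 37 genes, the log2 fold changes of overload in WT and KO, which share no library, had a Pearson r of 0.915, a description over genes that are not independent. The KO value was smaller in size in 32 of the 37.

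The 24 genes called in WT overload and the 13 not called differed in how well they were measured and in base composition. The SE of the log2 fold change was 0.0971 to 0.181 (median 0.138) in the former and 0.136 to 0.553 (median 0.302) in the latter, and the GC content of the principal transcript was 42% to 55.5% (median 51.4%) and 48% to 60.7% (median 56%). The call itself depends on the SE, so the difference in SE is partly set by this split. Ndufa11, Ndufb7, Ndufs8, Ndufs7, Ndufa2, Ndufa7, Ndufa13, Ndufa8 and Ndufv1 had the 9 highest SDs within groups, between 0.413 and 0.948 on the log2 scale. They were low together in KO Sham column 3 and WT MTE 4: Ndufa11, the most variable, deviated from its group mean by -1.53 and -1.15 there. Over the 37 genes, the deviation of a library from its group mean correlated with GC content at r = -0.69 in KO Sham column 3, -0.58 in WT MTE 4 and -0.71 in KO MTE 3, and at 0.71 in KO Sham column 2 and 0.69 in KO MTE 1. Over 12061 genes the values for these libraries were -0.66, -0.52, -0.65, 0.72 and 0.54 in the same order, so genes outside complex I deviated too. Over the 37 genes r was small in WT Sham 3 (0.107), WT MTE 2 (-0.112) and KO MTE 4 (0.0854). GC content and the SD within groups correlated over the 37 genes at a Pearson r of 0.548 and a Spearman rho of 0.358. A fit with a GC offset for each library, chosen after the data were seen, called 31 genes lower in WT overload, 22 in KO overload and 0 in the other comparisons, with medians of -0.68 and -0.46. Of all genes, this fit called 19.6% lower in WT overload and 19.1% in KO overload, also more than without the offset. The medians over all genes were -0.069 and -0.077 in the same order. The offset was fitted to deviations from the mean over all libraries, so it may also take up group differences that follow GC content.

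**Figure D5:**
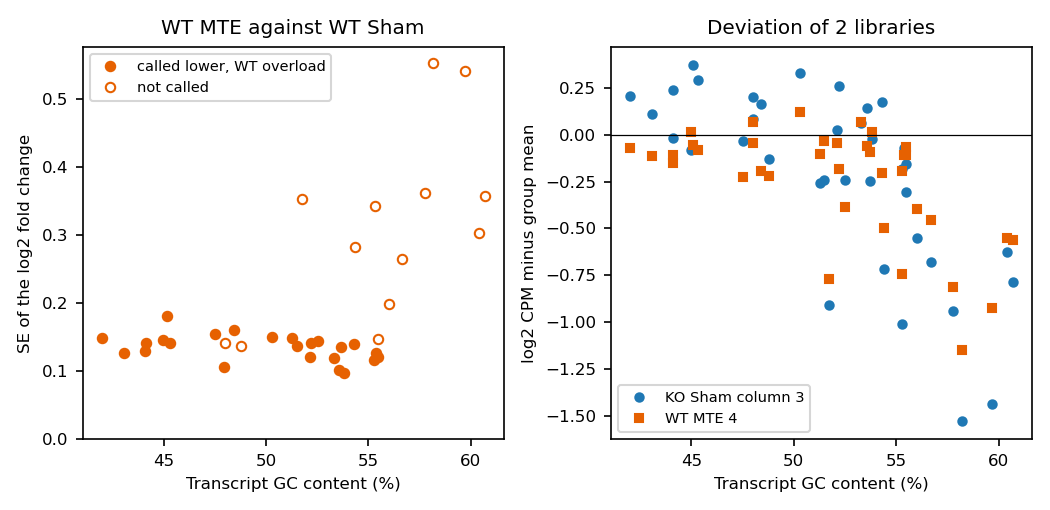
Left, SE of the WT overload log2 fold change against transcript GC content (%) for the 37 genes, filled where called lower. Right, deviation of log2 CPM from the group mean against GC content in KO Sham column 3 (circles) and WT MTE 4 (squares). Genes above about 55% GC include those with the largest SE and the lowest values in both libraries. They also include Ndufb8 and Ndufb9, with SEs of 0.116 and 0.127.

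The partners of these genes were read beside them. The 7 complex I subunits of the mitochondrial genome, which form the proton-pumping core of the membrane arm, had a median log2 fold change of -0.92 in WT overload, where 2 fell (mt-Nd2 and mt-Nd3), and of -1.32 in KO overload, where 4 fell (mt-Nd1, mt-Nd2, mt-Nd4 and mt-Nd5). mt-Nd2 had log2 fold changes of -1.15 (SE 0.40, adjusted p = 0.0482) and -1.66 (SE 0.43, adjusted p = 0.013). Their summed level was 5493 to 12980 CPM in WT Sham, 7460 to 24100 CPM in KO Sham, 4326 to 8603 CPM in WT MTE and 4578 to 6169 CPM in KO MTE, so the WT groups overlapped. Between genotypes after overload their median was 0.07 with 0 called, and 4 of 7 were above 0, next to 36 of 37 for the nuclear subunits. The difference between these lists was not tested.

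Of the 16 complex I assembly factors, 7 fell and 0 rose after overload in each genotype, with medians of -0.34 in WT and -0.33 in KO. Ndufaf5, a hydroxylase of a core subunit, had log2 fold changes of -1.06 (SE 0.16, adjusted p = 0.000323) in WT and -0.97 (SE 0.17, adjusted p = 0.00138) in KO, and Ndufaf6 had -1.03 (SE 0.19, adjusted p = 0.00158) and -0.94 (SE 0.20, adjusted p = 0.00529). Timmdc1, which acts in assembly of the membrane arm, was higher in KO MTE than in WT MTE, with a log2 fold change of 0.78 (SE 0.14, adjusted p = 0.0146), and was the only gene of this list called between genotypes. Of 14 regulators of mitochondrial biogenesis, 1 fell in WT overload and 4 in KO overload, and 0 rose. Tfb2m, a mitochondrial transcription factor, had log2 fold changes of -0.91 (SE 0.22, adjusted p = 0.00812) in WT and -0.94 (SE 0.23, adjusted p = 0.0113) in KO. Ppargc1a, the coactivator of mitochondrial genes, had -0.58 (SE 0.29, adjusted p = 0.155) and -1.02 (SE 0.31, adjusted p = 0.0266), so it passed in KO alone, and the interaction called no gene.

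The 39 nuclear subunits of complexes II to V measured alongside had a profile close to that of complex I: 21 fell in WT overload (median -0.48) and 10 in KO overload (median -0.17), with 0 higher in either. Sdha, of complex II, had -0.91 (SE 0.14, adjusted p = 0.00035) in WT, and Cox5a, of complex IV, -0.92 (SE 0.15, adjusted p = 0.000693). After overload, 39 of 39 were above 0 in KO against WT, with a median of 0.40 and 0 called by edgeR, where 17 had an unadjusted p under 0.05. Complex I was not tested against these complexes.

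The authors' deposited table held all 37 genes. By the authors' deposited table, the 2-way analysis of variance gave a p under 0.05 for surgery in 25 of the 37, against 52% of all genes, for genotype in 8, against 15.7%, and for the interaction in 5, against 4.26%. In the authors' deposited table, 8 of the 37 had an adjusted p under 0.05 between KO Sham and KO MTE and 0 between the sham groups. The shares of all genes in these columns were not computed, so neither count can be set against them. The columns of that table for WT MTE against KO MTE and for WT Sham against WT MTE hold equal adjusted p-values in all 17217 rows, so neither was used.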

How the data were processed

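Estimated counts per Ensembl gene were deposited by the authors. STAR, RSEM and edgeR, without versions, and the build GRCm38 are listed per the submitters' processing notes. The authors also deposited log2 values, TMM-normalised per the file headers and relative to the WT Sham mean, which differed from values recomputed here by a median of 0.000129. Further deposited columns hold, per the file headers, p-values of an analysis of variance and adjusted p-values of pairs of groups.

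Estimated counts were rounded, since the planned count test needs whole numbers (90.9% of values lay within 0.01 of one). Genes were filtered with filterByExpr (17212 of 17230 kept), scaled by TMM, and fitted with edgeR 4.0.16 (robust quasi-likelihood, R 4.3.3) as 4 group means over 15 libraries. A call is a Benjamini-Hochberg adjusted p under 0.05, and an SE is the absolute log2 fold change over the root of F. DESeq2 1.42.0 and limma 3.58.1 were alternatives. The fit was also run on simulated counts with known changes. Each gene was drawn independently there, so deviations that genes of a library share were not covered. The NRF1 motif was first searched in a longer form and then as its core, and both shares are given. Gene positions, lengths and GC content came from GENCODE M21 (GRCm38), promoters from RefSeq. Rows without a symbol made up 18.1% of the table. No pair of libraries of a group agreed within sampling noise (chi-square per gene at least 36.5 over 21 pairs).

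The genes and lists were chosen with earlier results of these data known. Values in every library are given for the core subunits, the 4 genes with the largest and the 4 with the smallest change in WT overload, Ndufa4 and Ndufab1 (no gene was called higher after overload or between genotypes, which would also have named it); other genes are marked as named after their values were seen or belong to the partner lists. Of the 37 genes, 1 enters all counts, sums and medians but is not reported here by itself.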

Additional observations from a re-analysis of the deposited data

Results flagged for a closer look

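Libraries that stood apart from the rest of their group were looked for in 16 of the complex I genes, in the 48 groups of 4 libraries these give, by whether the gap to the nearest library, over the group's range, passed Dixon's 95% critical value. This was so in 4 of the 48, and chance alone marks about 1 in 20 groups. Ndufb2 measured 31.43 CPM in WT Sham 1 where the other WT Sham libraries had 46.12 to 48.18. Ndufb2 also measured 34.46 CPM in KO MTE 2, with 29.52 to 30.14 in the others. Ndufa7 measured 51.46 CPM in WT Sham 1, with 27.65 to 30.85 in the others. Ndufab1 measured 50.44 CPM in WT MTE 2, with 42.47 to 43.65 in the others. Of the 4, 2 were in WT Sham 1, in opposite directions.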

How the results depend on the processing

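The WT overload count of 24 stayed between 20 and 31 in all settings run, with 20 to 26 when single libraries were left out. No complex I gene was called higher in any of them. The share of all genes called lower, 11.2% in the reported fit, moved too. It ran from 7.24% without WT Sham 2 to 21% with sample quality weights, and was 19.6% with the GC offset, which gave the 31. The count for KO overload (11) was 7 in a fit to these 2 groups alone and 22 with the GC offset, and ran from 3 to 11 with single libraries left out, the 11 (without KO Sham column 2) being 10 lower and Ndufb7 higher. Of all genes, 12.7% were called lower in the reported fit, 9.39% in the fit to 2 groups and 19.1% with the GC offset. The share was 5.53% without KO Sham column 3, the fit with the count of 3. The median for KO overload (-0.23) moved to -0.455 with the GC offset and ran from -0.314 to -0.144 with single libraries left out. KO MTE against WT MTE (0) rose to 4 with DESeq2, 6 with sample quality weights, 2 in a fit to these 2 groups alone and 6 with WT Sham 1 and KO Sham column 3 left out. KO Sham against WT Sham and the interaction stayed at 0 in every setting.

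Whether same-numbered libraries were paired could not be settled. The correlations of their deviations ran from -0.11 to 0.46 over the 3 numbered groups, and each pair of groups had at least 1 number under 0.1. Number 1 had correlations of 0.31, 0.46 and 0.29. With the replicate number as a block, on the 12 numbered libraries, 25 genes were called in WT overload and 0 between the genotypes after overload, as on the same libraries with no block (25 and 0). Of all genes, 14.5% were called lower in WT overload with the block and 12.7% without it. Between the genotypes after overload, 1.68% and 1.38% were called higher. KO Sham columns carry no matched number, so no blocked fit of KO overload was possible.

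Of 592 values for single genes, 529 kept direction and call, 27 lost the call, 7 gained one and 29 changed sign, all of the last in genes with no call in the reported fit; the cause was not tested. In WT overload, Ndufa11 was 0.211 with quality weights, 0.237 without WT Sham 1 and KO Sham column 3, and -0.348 to 0.236 with single libraries left out. Ndufa7 was 0.031, 0.0358 and -0.375 to 0.0353 in the same settings. Ndufb7 was -0.133 with the GC offset and -0.139 to 0.53 with single libraries left out. In KO overload, Ndufv1 was 0.0101 with limma voom, -0.579 with the GC offset (a call, adjusted p = 0.00616 by edgeR), and -0.351 to 0.347 with single libraries left out. Without WT Sham 1 and KO Sham column 3, Ndufs7 was -0.185, Ndufs8 -0.139 and Ndufa8 -0.271; with the GC offset they were -0.492 (a call, adjusted p = 0.0276 by edgeR), -0.289 and -0.324; with single libraries left out they ran from -0.165 to 0.752, -0.119 to 0.83 and -0.252 to 0.461. Ndufa8 was also -0.00801 with RLE size factors and -0.00723 with DESeq2. The GC offset, the 12 libraries without the block and the NRF1 core were chosen after seeing the data.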
